A study of Homo sapiens with 6 samples.

Results

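The long-arm ends of 18 human chromosomes were examined for γH2AX, the form of the histone variant H2AX that is phosphorylated on chromatin around DNA double strand breaks. An end was taken as the last 5 Mb before the highest position covered by any of 4 deposited peak lists, on chromosomes 1 to 15, 18, 20 and 21. A peak belonged to an end when its midpoint lay within that stretch. This rule gave 1117 peaks of 12579 in all lists. Chromosomes 16, 17, 19 and 22 were left out by the rule, and 8580 peaks lay on the 18 chromosomes kept. The ends added up to 90 Mb, which is 3.6% of the 2499.86 Mb between the first and last covered positions of these chromosomes.

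γH2AX was mapped in DLD1, an established line of human colorectal cancer cells, by chromatin immunoprecipitation and sequencing (ChIP-seq) with an antibody to phosphorylated H2AX. The cells were wild type for UNG (UNG+/+, called WT) or UNG knockout (UNG-/-, called KO). No source used here says whether the knockout line is a single clone. Each genotype was treated with pemetrexed, treated with cisplatin, or left untreated, with 1 library per group and 6 libraries in all. Peak lists were analysed for the 4 drug-treated libraries, and the 2 untreated libraries were not analysed here. No source used here gives the doses, treatment times, read depths or the control used for peak calling. With 1 library per group no difference has a replicate check, and every 95% interval covers counting error only and treats neighbouring peaks as independent, which they are not.

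UNG, a uracil DNA glycosylase, cuts uracil out of DNA and so starts base excision repair. Pemetrexed is an antifolate that inhibits thymidylate synthase, which lowers thymidine nucleotides and favours the use of uracil in their place during DNA synthesis. Cisplatin forms platinum adducts and crosslinks between bases. The ends of the long arms hold subtelomeric DNA, which on many human chromosomes is rich in genes and in G and C, with repeats shared between chromosomes next to the telomere. γH2AX spreads over wide stretches of chromatin on either side of a break, so a called peak marks a stretch of modified chromatin and not the break itself.

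The files give each peak as a chromosome, a start and an end in hg18, with no height, fold or score. A gene table was at hand only for another build (GRCh38.p14), so no peak was assigned to a gene, exon or intron. For orientation, the last protein-coding genes in the order of that RefSeq table were CRIP1, TEDC1 and TMEM121 on chromosome 14, and NPBWR2, MYT1 and PCMTD2 on chromosome 20. They were ARRDC1, EHMT1 (a histone H3 lysine methyltransferase) and CACNA1B (a neuronal calcium channel subunit) on chromosome 9. On chromosome 2 they were PDCD1 (the immune checkpoint receptor PD-1), RTP5 and FAM240C, and on chromosome 11 GLB1L3, GLB1L2 and B3GAT1. Gene order next to a telomere can differ between builds.

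Pooled over the 18 long-arm ends, γH2AX peaks were denser there than in the rest of the same chromosomes in all 4 lists. For peaks as listed, the ratio of densities was highest in UNG knockout cells after pemetrexed. The KO pemetrexed list had 603 end peaks, or 6.70 per Mb, against 0.989 per Mb in the interior. The ratio of these densities was 6.77 (95% exact interval 6.18 to 7.41). The KO cisplatin list had 348 end peaks, at 3.87 per Mb against 1.27 in the interior, a ratio of 3.03 (2.71 to 3.39). The WT cisplatin list had 114 end peaks, at 1.27 per Mb against 0.532, a ratio of 2.38 (1.95 to 2.89). The WT pemetrexed list had 52 end peaks, at 0.578 per Mb against 0.301, a ratio of 1.92 (1.42 to 2.55). Not every end was denser than the interior of its own chromosome. Of the 18 ends, 13 were in KO pemetrexed, 16 in KO cisplatin, 13 in WT cisplatin and 14 in WT pemetrexed. The KO pemetrexed ratio was below 1 on chromosomes 1, 4, 6, 11 and 15, at 0.103, 0.973, 0, 0.101 and 0.459. As shares of each list's peaks on the 18 chromosomes, the ends held 20.2% of KO pemetrexed peaks (18.8 to 21.7%), 10.2% of KO cisplatin peaks (9.18 to 11.2%), 8.17% of WT cisplatin peaks (6.78 to 9.73%) and 6.69% of WT pemetrexed peaks (5.04 to 8.68%). With peaks within 100 kb joined the 4 ratios drew closer, at 2.96 in KO pemetrexed (2.35 to 3.68) and 2.40 in KO cisplatin (2.05 to 2.78), with 2.22 and 1.92 in WT after cisplatin and pemetrexed. Without the 5 ends that held the most KO pemetrexed peaks they were 2.70, 1.90, 1.51 and 1.72. The interior density counts unsequenced stretches such as centromeres as peak-free. With the longest stretch without a peak in any list left out on each chromosome, the ratios were 6.31, 2.83, 2.22 and 1.79 in the same order. Those stretches, from 3.44 Mb on chromosome 21 to 28.2 Mb on chromosome 9, were found from the peaks alone. They need not be unsequenced, so these ratios are not a correction for unsequenced DNA.

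The design asks how loss of UNG changed γH2AX after pemetrexed, and at the long-arm ends KO peaks outnumbered WT peaks 11.6 times (603 against 52, 95% interval 8.73 to 15.7). In the interior of the same chromosomes it held 3.29 times as many (2384 against 725, 3.02 to 3.58). The odds of a peak lying at an end were therefore 3.53 times as high in the KO as in the WT pemetrexed list (95% exact interval 2.62 to 4.83). This odds ratio sets the ends against the interior of the same 2 libraries, so a factor that lengthens a list evenly over the chromosomes drops out of it. Whether read depth, which is unknown, acts evenly was not tested. The odds ratio depended on how neighbouring peaks were counted, and was 1.54 with peaks within 100 kb of each other joined. It also depended on a few chromosomes, and was 1.57 without the 5 ends that held the most KO pemetrexed peaks, a choice made after the counts were seen.

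After cisplatin the KO list held 3.05 times as many end peaks as the WT list (348 against 114, 2.46 to 3.81), and 2.40 times as many in the interior (3072 against 1282, 2.24 to 2.56). The odds ratio of lying at an end was 1.27 (1.02 to 1.60). Its interval reached 1 when the end was taken as 2 or 10 Mb, when peaks within 10 or 100 kb were joined, and when chromosome 5, 8, 15 or 21 was left out. The data thus do not settle whether the KO over WT change at the ends differs from that in the interior for this drug. The KO over WT odds ratio after pemetrexed was 2.77 times that after cisplatin (1.91 to 4.004, a 95% Wald interval). With peaks within 100 kb joined this factor was 1.43 and its interval held 1 (0.915 to 2.23). Between drugs in KO cells, the odds of lying at an end were 2.23 times as high after pemetrexed (1.93 to 2.58). With peaks within 100 kb joined this odds ratio was 1.23 and its interval held 1 (0.938 to 1.62). In WT cells the same odds ratio was 0.807, with an interval from 0.562 to 1.14 that does not settle its direction.

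**Figure D1:**
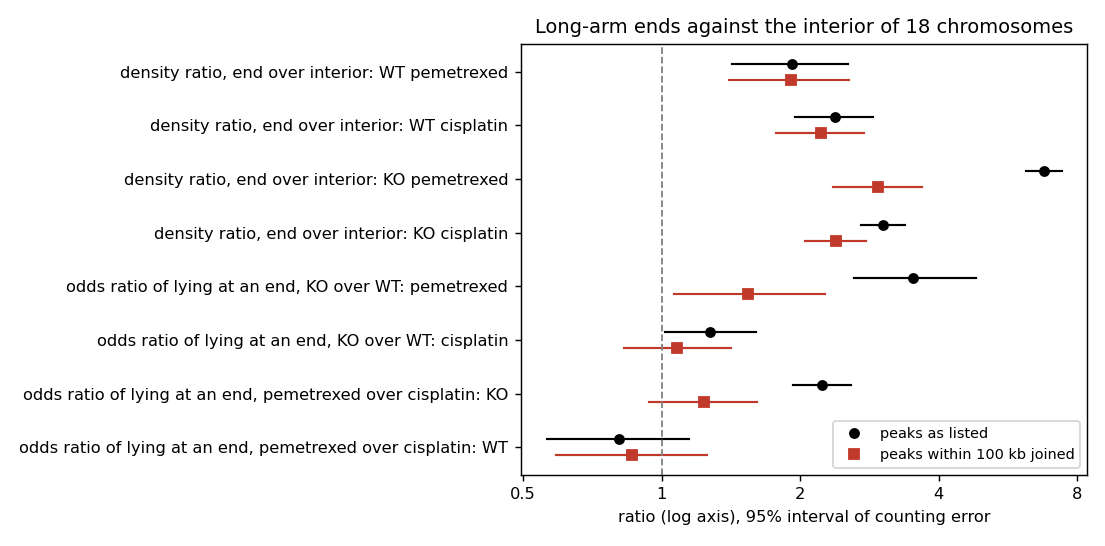
Ratios on a log axis with 95% intervals of counting error, for peaks as listed (black circles) and for peaks within 100 kb joined (red squares). The upper 4 rows give peaks per Mb at the long-arm ends over the interior for each list, and the lower 4 the odds ratio of a peak lying at an end between lists. The KO pemetrexed density ratio is 6.77 as listed and 2.96 after joining.

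The ends differed widely from each other, and the KO pemetrexed peaks sat on a few of them. The 5 ends with the most, on chromosomes 14, 20, 9, 8 and 21, held 422 of the 603 peaks, or 70.0% (66.2 to 73.6%). On chromosome 14 the end held 100 peaks in KO pemetrexed, 40 in KO cisplatin, 20 in WT cisplatin and 3 in WT pemetrexed. On chromosome 20 it held 97, 38, 12 and 6 in the same order of lists, and on chromosome 9 it held 92, 36, 15 and 4. Each of these ends thus had the order KO pemetrexed, KO cisplatin, WT cisplatin, WT pemetrexed. They were chosen by their KO pemetrexed peaks, so the first place of that list follows in part from the choice. The end of chromosome 8 held 78, 36, 8 and 2 peaks. The end of chromosome 21 held 55, 40, 7 and 4. Among the ends with the most WT pemetrexed peaks were also those of chromosomes 2 and 11, with 5 each. The end of chromosome 2 held 30 KO pemetrexed, 19 KO cisplatin and 12 WT cisplatin peaks, and that of chromosome 11 held 1, 7 and 3.

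For chromosomes 21, 8 and 14, most KO pemetrexed peaks of the whole chromosome lay in the last 5 Mb. The share was 76.4% on chromosome 21 (55 of 72, 95% exact interval 64.9 to 85.6%), where the end makes up 13.7% of the covered span. It was 69.6% on chromosome 8 (78 of 112, 60.2 to 78.0%), where the end makes up 3.44% of the span. It was 64.9% on chromosome 14 (100 of 154, 56.8 to 72.4%), with 5.81% of the span. The KO cisplatin shares of the same ends were 57.1%, 23.4% and 30.8%. The WT pemetrexed shares were 25%, 3.45% and 12%, which rest on 4, 2 and 3 peaks.

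Some other ends held few KO pemetrexed peaks. The end of chromosome 1 had 1 of the 469 KO pemetrexed peaks on that chromosome, and the end of chromosome 11 had 1 of 257. The end of chromosome 6 had 0 of 78, with an exact upper bound of 4.62%, above the 3.03% of the covered span that it makes up. Ends on chromosomes 4, 15 and 18 had 3 each. The same 6 ends held 7 to 9 KO cisplatin peaks each, so they were not without peaks in KO cells. The KO pemetrexed list exceeded the WT pemetrexed list at 13 of 18 ends, equalled it at 2 (chromosomes 1 and 4) and was below it at 3 (chromosomes 6, 11 and 18). The KO cisplatin list exceeded the WT cisplatin list at all 18 ends. The KO pemetrexed list exceeded the KO cisplatin list at 11 ends and was below it at 7. The median end held 24.5 peaks in KO pemetrexed, 15.5 in KO cisplatin, 4.5 in WT cisplatin and 3 in WT pemetrexed.

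**Figure D2:**
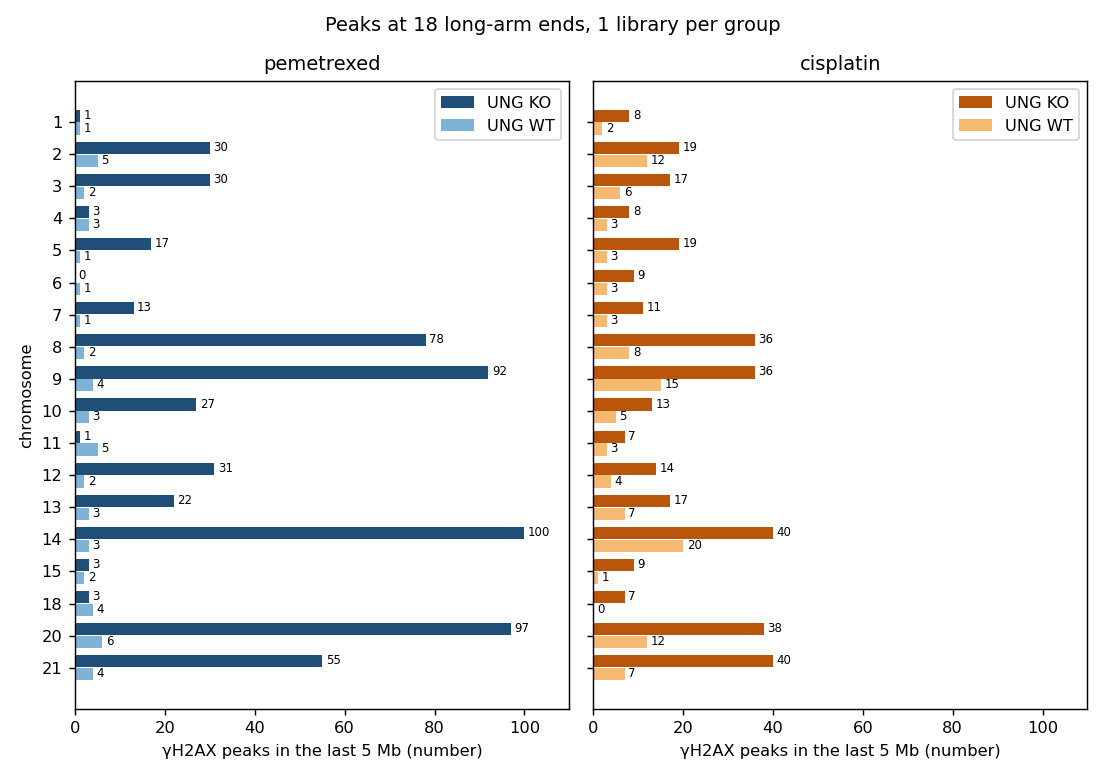
Number of γH2AX peaks in the last 5 Mb of each of 18 long arms, for pemetrexed (left) and cisplatin (right), with KO as dark and WT as light bars; each bar is 1 library. KO pemetrexed peaks reach 100 on chromosome 14 and are 0 on chromosome 6, while KO cisplatin peaks range from 7 to 40.

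The ends rich in KO pemetrexed peaks were also rich in peaks of both cisplatin lists. Over the 18 ends, the counts of KO pemetrexed and KO cisplatin peaks had a Pearson's r of 0.946 and a Spearman's rho of 0.899. The counts of WT cisplatin peaks had a rho of 0.875 with KO pemetrexed and 0.862 with KO cisplatin. The WT pemetrexed counts, which ran only from 1 to 6 per end, had rho values of 0.377 with KO pemetrexed, 0.449 with WT cisplatin and 0.224 with KO cisplatin. These values describe 18 ends of 1 cell line, and each end covers the same stretch in every list. Gene density, base composition and copy number were not measured here, and their part in these values was not tested.

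On the acrocentric chromosomes 13, 14, 15 and 21 the long arm carries the only end counted. These 4 ends held 29.9% of the KO pemetrexed end peaks (26.2 to 33.7%), 30.5% of KO cisplatin, 30.7% of WT cisplatin and 23.1% of WT pemetrexed end peaks (12.5 to 36.8%). Chromosome 15 stood apart from the other three, with 3 KO pemetrexed peaks against 22 to 100.

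Pooled over the ends, KO pemetrexed peaks were concentrated toward the outermost stretch. Of the 603, 268 lay in the last 1 Mb (44.4%, 40.4 to 48.5%) and 421 in the last 2 Mb (69.8%, 66.0 to 73.5%), where an even spread would put 40% in the last 2 Mb. The 5 ends richest in KO pemetrexed peaks did not all have their densest 1 Mb outermost. On chromosomes 20, 9 and 8 the outermost 1 Mb held the most, at 55, 43 and 34. On chromosome 14 the outermost 1 Mb held 27, and 47 lay in the 1 Mb starting 3 Mb inward. On chromosome 21 the outermost 1 Mb held 1, and 34 lay in the 1 Mb starting 2 Mb inward. The last 2 Mb held 51.4% of KO cisplatin end peaks (46.0 to 56.8%), 50.9% of WT cisplatin (41.3 to 60.4%) and 48.1% of WT pemetrexed (34.0 to 62.4%). The KO over WT odds ratio of lying in the last 2 Mb against the 3 Mb inside it was 2.49 for pemetrexed (1.35 to 4.62) and 1.02 for cisplatin (0.655 to 1.60).

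Counted in steps of 1 Mb inward from the last covered position, the KO pemetrexed list had 14.9, 8.5, 3.94, 4.83 and 1.33 peaks per Mb. Between 5 and 10 Mb it had 0.278 to 2.28 per Mb. KO cisplatin densities were 6.61 per Mb in the outermost step and 2.39 in the fifth, and WT cisplatin densities were 2 and 0.944. WT pemetrexed had 1 peak per Mb in the outermost step and 0.389 to 0.611 in the next 4. Pooled over the ends, the outermost step thus had the highest density of the first 20 Mb in each list. At the 5 Mb limit itself little changed, since the last 100 kb inside it held 1 KO pemetrexed peak and the 100 kb outside it 4. The nearest peaks of that list to the limit were 734 bp wide on chromosome 4 (185521220 to 185521954), 4.92 Mb from the last covered position, and 978 bp wide on chromosome 11 (129358561 to 129359539), at 5.02 Mb. For KO cisplatin they were 872 bp wide at 4.97 Mb on chromosome 8 and 729 bp wide at 5.01 Mb on chromosome 21.

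**Figure D3:**
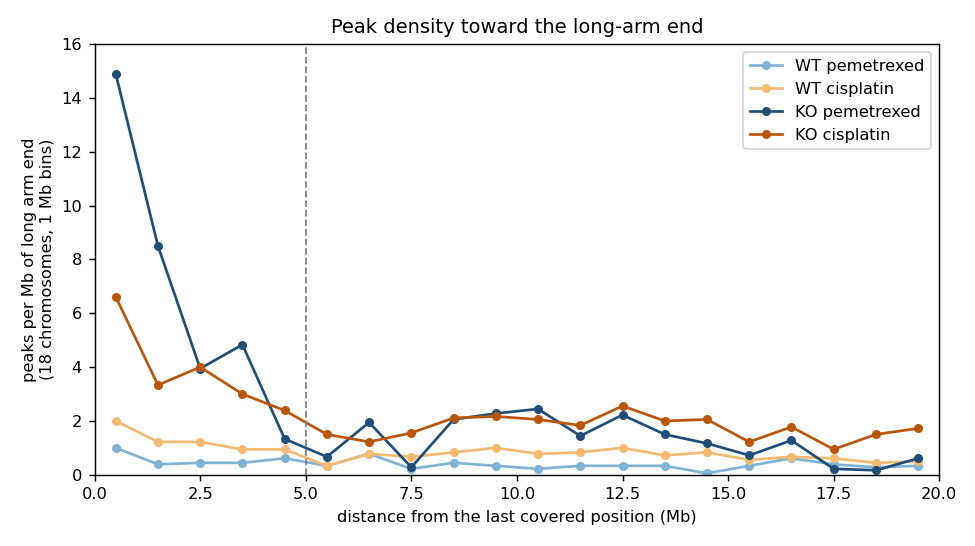
Peaks per Mb, averaged over 18 long-arm ends in 1 Mb bins, against distance from the last covered position (Mb); each line is 1 library and the dashed line marks the 5 Mb limit. The KO pemetrexed line starts at 14.9 per Mb and is 1.33 per Mb in the fifth bin, while the WT pemetrexed line stays at or below 1.

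The last covered position is that of the outermost peak and not the end of the chromosome. It was set by KO cisplatin peaks on 8 chromosomes, by KO pemetrexed and by WT cisplatin peaks on 4 each, and by WT pemetrexed peaks on 2. These 18 peaks belong to the ends by construction, and without them the pemetrexed odds ratio was 3.64 and the cisplatin one 1.29. The outermost KO pemetrexed peak lay a median of 171 kb from the last covered position, and the outermost WT pemetrexed peak 659 kb. On chromosome 20 the outermost peak was a KO pemetrexed peak (62218354 to 62219373), and on chromosome 2 a WT cisplatin peak (242557639 to 242558373). On chromosomes 14 (105469944 to 105470637) and 9 (139829938 to 139830753) it was a KO cisplatin peak. On chromosome 11 it was a WT pemetrexed peak (134374478 to 134375380), 4873 kb beyond the outermost KO pemetrexed peak of that chromosome.

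KO pemetrexed peaks were also wider at the ends than in the interior. Their median width was 1472 bp at the ends (interquartile range 967 to 2366) and 1062 bp in the interior (881 to 1627). At the ends 32.7% of peaks were 2 kb or wider (197 of 603, 95% exact interval 28.9 to 36.6%), against 16.7% in the interior (398 of 2384, 15.2 to 18.3%), an odds ratio of 2.42 (1.97 to 2.97). The median differed between ends, at 1380 to 2394 bp on chromosomes 8, 9, 10, 12, 14, 20 and 21. On chromosomes 2, 3, 5, 7 and 13 it was 1022.5 to 1155.5 bp, near the interior median. On chromosomes 1, 4, 11, 15 and 18, with 1 to 3 peaks each, it was 586 to 1200 bp. Within the ends, the median width was 1644 bp in the outermost 1 Mb and 981 bp in the fifth. The other lists had no end peak of 2 kb or more. The exact upper bounds for that share were 1.05% in KO cisplatin, 3.18% in WT cisplatin and 6.85% in WT pemetrexed. In the interior 28 of 3072 KO cisplatin peaks (0.911%) were that wide, and 0 in either WT list. The end over interior odds ratio for KO cisplatin had an interval of 0 to 1.24, so no difference from the interior could be seen in these lists.

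Median widths at the ends and in the interior were close in the other lists. They were 848.5 and 801 bp in KO cisplatin, 648 and 616 bp in WT cisplatin, and 585 and 583 bp in WT pemetrexed. The end peaks covered 1.25 Mb in the KO pemetrexed list, 314 kb in KO cisplatin, 77.5 kb in WT cisplatin and 31.2 kb in WT pemetrexed. Per kb of end, KO pemetrexed peaks covered 13.9 bp against 1.49 bp per kb of interior, and WT pemetrexed peaks 0.347 against 0.181 bp. The KO over WT ratio of covered bases at the ends was 40.1 for pemetrexed and 4.05 for cisplatin. A covered length grows with both number and width of peaks, and both can grow with read depth, which is unknown.

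**Figure D4:**
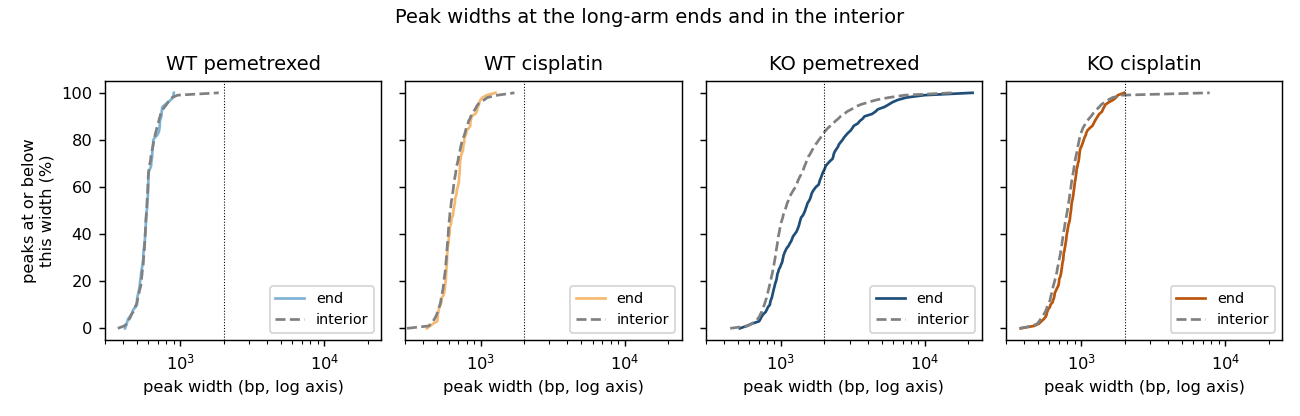
Share of peaks (%) at or below each width (bp, log axis) in the 4 lists, at the long-arm ends (solid) and in the interior of the same chromosomes (dashed); the dotted line marks 2 kb. The end and interior curves separate in the KO pemetrexed list, with medians of 1472 and 1062 bp, and nearly coincide in WT pemetrexed, with 585 and 583 bp.

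The 5 widest KO pemetrexed end peaks all lay within the last 2 Mb. The widest spanned 21459 bp on chromosome 10 (134114109 to 134135568), 0.511 Mb from the last covered position, and a WT cisplatin peak lay inside it. The next spanned 17255 bp on chromosome 20 (60228978 to 60246233), with the nearest KO cisplatin peak 18.9 kb away and the nearest WT pemetrexed peak 100 kb away. On chromosome 8 there were peaks of 14280 bp (145025046 to 145039326) and 11483 bp (144940710 to 144952193), and a WT cisplatin peak met the narrower one. The remaining peak spanned 13769 bp of chromosome 14 (104730075 to 104743844). No WT pemetrexed or KO cisplatin peak met any of the 5. In all, 37 KO pemetrexed end peaks were 5 kb or wider, on 6 chromosomes, and 34 of them lay in the last 2 Mb.

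The widest end peaks of the other lists were far narrower. In KO cisplatin the widest was 1984 bp on chromosome 20 (61540821 to 61542805), followed by 1925 bp on chromosome 4 and 1822 bp on chromosome 9. A peak of 1792 bp lay on chromosome 5 (176873877 to 176875669). One of 1802 bp on chromosome 14 (104324542 to 104326344) lay 0.805 kb from a KO pemetrexed peak. In WT cisplatin the widest was 1270 bp on chromosome 8 (145625257 to 145626527), 1.25 kb from a KO pemetrexed peak. The next 4 were 984 to 1115 bp, on chromosomes 8, 20 and 9. In WT pemetrexed the 5 widest were 743 to 902 bp, on chromosomes 11, 20, 14 and 21, and none of the 5 met a peak of another list. The widest was the outermost peak of chromosome 11.

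KO pemetrexed end peaks stood in dense runs. The median gap between neighbouring peaks of the list within an end was 13.7 kb, against 41.0 kb in the interior. It was 106 kb at the ends in KO cisplatin, 322 kb in WT cisplatin and 1139 kb in WT pemetrexed. With peaks within 100 kb joined, the 603 KO pemetrexed peaks formed 91 regions, or 6.63 peaks per region, against 2.89 in the interior. The 348 KO cisplatin peaks formed 188 regions (1.85 per region), the 114 WT cisplatin peaks 91 (1.25) and the 52 WT pemetrexed peaks 49 (1.06). Counted as regions, the KO over WT ratio at the ends was 1.86 for pemetrexed (1.30 to 2.68) and 2.07 for cisplatin (1.60 to 2.68), where counted as peaks it was 11.6 and 3.05. Counted as regions, pemetrexed thus no longer had the higher ratio. Joining merges more peaks in a denser list whatever the arrangement, while peaks as listed can count 1 stretch of modified chromatin more than once. Which count is the better reading of the difference was not tested.

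The 5 regions with the most KO pemetrexed peaks held 223 of the 603 (37.0%). The first was on chromosome 20 (61593670 to 62219373), where 50 peaks covered 18.4% of 626 kb up to the last covered position. That region also held 11 peaks of KO cisplatin, 4 of WT cisplatin and 2 of WT pemetrexed. On chromosome 14, 46 peaks lay between 101453387 and 102298881, about 3.59 Mb from the last covered position, beside 6 of KO cisplatin, 2 of WT cisplatin and 0 of WT pemetrexed. This was the only one of the 5 centred outside the last 2 Mb. The next were 45 peaks on chromosome 8 (144561568 to 145360921), beside 16 of KO cisplatin, 3 of WT cisplatin and 0 of WT pemetrexed, and 42 peaks on chromosome 9 (138589590 to 139281406), beside 5, 2 and 0. The fifth was a second region on chromosome 14 (104235777 to 105107507), with 40 KO pemetrexed peaks beside 16, 9 and 1. WT pemetrexed peaks in these 5 regions thus numbered 3 and KO cisplatin peaks 54. The regions were chosen by their KO pemetrexed peaks, so the lead of that list inside them follows in part from the choice.

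The 91 KO pemetrexed regions spanned 11.8% of the ends. Inside them lay 31.9% of the KO cisplatin end peaks (111 of 348, 27.0 to 37.1%), 31.6% of WT cisplatin (36 of 114, 23.2 to 40.9%) and 19.2% of WT pemetrexed (10 of 52, 9.63 to 32.5%). Both cisplatin intervals lay above the 11.8% of length that the runs take up. The WT pemetrexed interval held 11.8% and also overlapped both cisplatin intervals. The runs were drawn from KO pemetrexed peaks, and the ends rich in these were also rich in both cisplatin lists. A share above 11.8% can follow from that, and a closer match in place within an end was not tested.

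**Figure D5:**
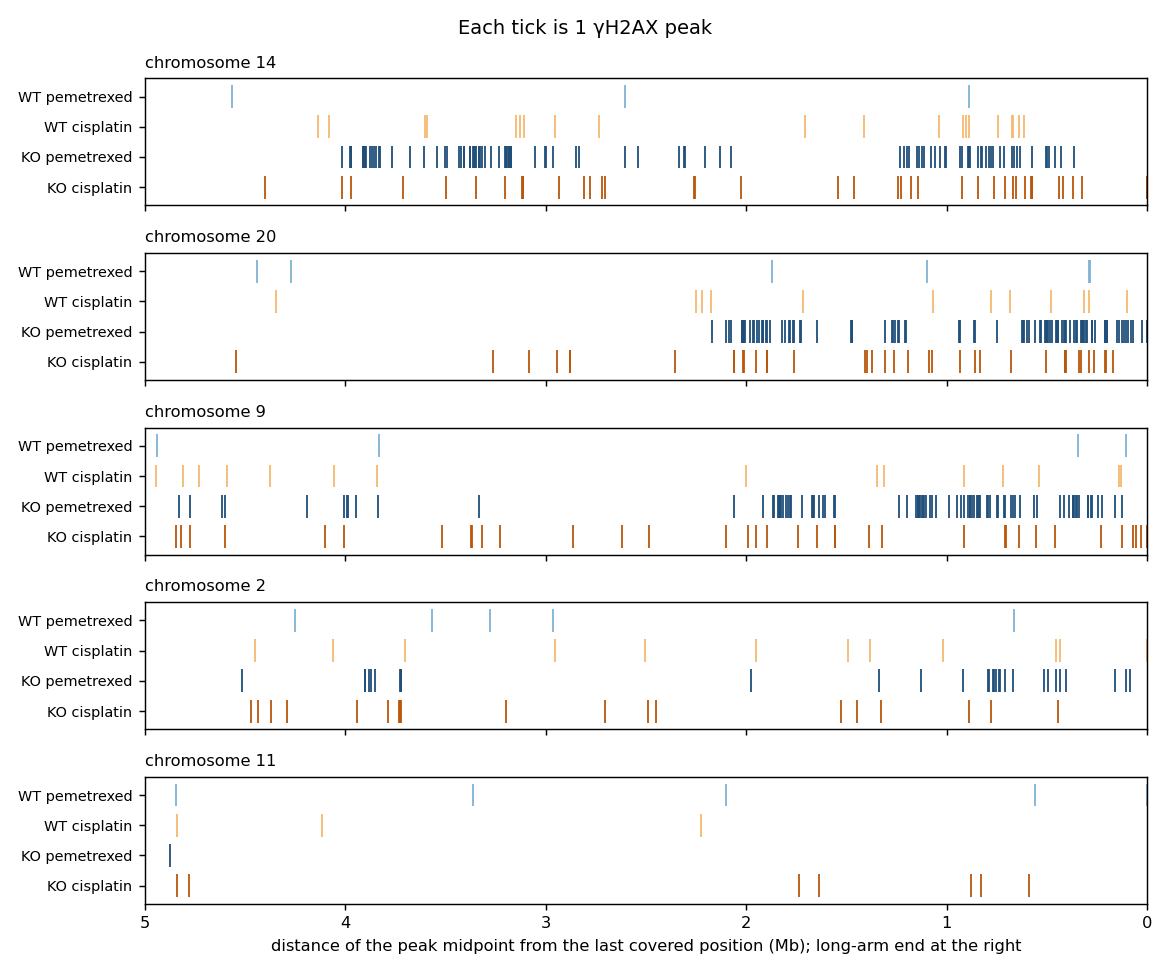
Position of each γH2AX peak (tick) in the last 5 Mb of 5 long arms, by distance of its midpoint from the last covered position (Mb), with the outer end at the right and 1 row per library. KO pemetrexed ticks form runs near the ends of chromosomes 14, 20 and 9, with a further run about 3.59 Mb inward on chromosome 14, and a single tick stands on chromosome 11.

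In windows of 1 Mb counted back from the last covered position, a window was called higher in a list with at least 3 peaks and more than 2 times the count of the other list. Of the 90 end windows, 34 (37.8%, 95% exact interval 27.8 to 48.6%) were called higher in KO after pemetrexed, against 10.5% of all 2509 windows of the 18 chromosomes. After cisplatin 41 end windows (45.6%, 35.0 to 56.4%) were called higher in KO, against 13.3% of all windows. No end window was called higher in WT for either drug, where the share over all windows was 0.638% for pemetrexed and 0.917% for cisplatin. The exact upper bound for 0 of 90 was 4.02%, above both shares, so no difference from all windows could be seen. The highest WT pemetrexed count in an end window was 3, the minimum for a call, so such a call was hardly possible there. Within KO cells, 18 end windows (20%) were called higher after pemetrexed, against 4.78% of all windows, and 21 (23.3%) higher after cisplatin, against 9.80%. Within WT cells, 1 end window was called higher after pemetrexed, against 0.638% of all windows, and 14 (15.6%) higher after cisplatin, against 4.82%. A window with more peaks in any list passes the minimum of 3 more easily, so part of these shares follows from the density of the ends.

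The end window with the most KO pemetrexed peaks was the outermost of chromosome 20 (61219373 to 62219373), where 55 KO pemetrexed peaks stood beside 15 of KO cisplatin, 6 of WT cisplatin and 2 of WT pemetrexed. KO cisplatin peaks were found in more windows than KO pemetrexed peaks, at the ends and over all windows alike. Of the 90 end windows, 39 (43.3%) held no KO pemetrexed peak and 14 (15.6%) held no KO cisplatin peak, against 77.8% and 47.8% of all windows. The highest count in a window was 55 for KO pemetrexed and 17 for KO cisplatin.

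Few end peaks occupied the same place in different lists. Of 1066 separate regions covered at the ends, 48 (4.50%) had peaks in more than 1 list, 47 of them in 2 lists, 1 in 3 and 0 in 4. In 32 of the 47 the peaks came from both KO lists, which were also the lists with the most end peaks. The share of regions in more than 1 list was not computed for the interior, so it is not shown to be particular to the ends. Of the 348 KO cisplatin end peaks, 34 met a KO pemetrexed peak by at least 1 bp (9.77%, 6.86 to 13.4%). In the interior the share was 4.30% (132 of 3072), and the odds ratio of end over interior was 2.41 (1.57 to 3.61). From the other side, 5.64% of KO pemetrexed end peaks met a KO cisplatin peak and 5.33% in the interior, with an odds ratio of 1.06 (0.697 to 1.58). KO pemetrexed peaks cover more of the ends than of the interior, so a peak of any list meets them there more easily.

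Of the 114 WT cisplatin end peaks, 8 met a KO pemetrexed peak (7.02%, 3.08 to 13.4%) and 4 a KO cisplatin peak (3.51%, 0.964 to 8.74%). In the interior the shares were 1.64% (21 of 1282) and 1.09% (14 of 1282). Of the 52 WT pemetrexed end peaks, 2 met a KO pemetrexed peak and 2 a WT cisplatin peak (3.85% each, 0.469 to 13.2%), and 1 met a KO cisplatin peak. The interior shares of that list were 0.414% on KO pemetrexed, 0.690% on WT cisplatin and 0.966% on KO cisplatin peaks. Each of these WT pemetrexed counts is under 3, so no difference between them could be seen. With a gap of up to 10 kb allowed, 21.2% of WT pemetrexed end peaks (11.1 to 34.7%) lay at a KO pemetrexed peak, and 29.0% of KO cisplatin end peaks did (24.3 to 34.1%). Lists of the same genotype may have been called against the same control, and no source used here names it.

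The region with peaks in 3 lists was 1221 bp on chromosome 9 (138915876 to 138917097), 0.914 Mb from the last covered position. Its peaks were 984 bp in WT cisplatin, 963 bp in KO pemetrexed and 790 bp in KO cisplatin. Of those in 2 lists, the longest was the 21459 bp on chromosome 10 described above. The next were 11680 bp on chromosome 8 (144940513 to 144952193), where a WT cisplatin peak of 611 bp met a KO pemetrexed peak of 11483 bp, and 8821 bp on chromosome 14 (104750832 to 104759653), where a KO cisplatin peak of 1200 bp lay inside a KO pemetrexed peak. They were followed by 7662 bp on chromosome 10 (134052344 to 134060006, WT cisplatin and KO pemetrexed) and 6218 bp on chromosome 20 (61801084 to 61807302, both KO lists). In these 5 regions the KO pemetrexed peak was the wider one each time. They were chosen by length, which favours the list with the widest peaks.

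The short-arm ends, taken as the first 5 Mb after the first covered position on the 14 chromosomes that are not acrocentric, were the most similar stretches compared. They held 343 peaks in KO pemetrexed, 192 in KO cisplatin, 83 in WT cisplatin and 30 in WT pemetrexed, at 4.90, 2.74, 1.19 and 0.429 per Mb. KO peaks there outnumbered WT peaks 11.4 times after pemetrexed (7.86 to 17.2) and 2.31 times after cisplatin (1.78 to 3.03). The odds ratio of a peak lying at a long-arm rather than a short-arm end was 1.01 between KO and WT after pemetrexed (0.612 to 1.65) and 1.32 after cisplatin (0.931 to 1.87). Differences between the arms within these intervals could not be seen with the numbers of WT peaks at hand.

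The last 5 Mb of the 4 chromosomes left out, 16, 17, 19 and 22, had more peaks per Mb than the 18 ends in 3 of the 4 lists. They held 385 KO pemetrexed peaks (19.3 per Mb against 6.70 at the 18 ends) and 10 WT pemetrexed peaks (0.5 per Mb against 0.578), a KO over WT ratio of 38.5 (20.7 to 80.9). Their densities were 6.2 per Mb against 3.87 in KO cisplatin and 2.65 against 1.27 in WT cisplatin. The odds ratio of lying at the 18 ends rather than at these 4 was 0.301 between KO and WT pemetrexed (0.135 to 0.609). After cisplatin their KO over WT ratio was 2.34 (124 against 53, 1.68 to 3.29), and the corresponding odds ratio was 1.30 (0.868 to 1.95).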

How the data were processed

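γH2AX ChIP-seq libraries of DLD1 cells were grouped by sample title, 1 library per group, so no test over replicates was possible. Per the submitters' processing notes the tools were Bowtie (no version given) and MACS 1.4, with build hg18. No source used here gives the control, threshold or filters. Per the file headers each deposited list holds chromosome, start and end only. Read depth is unknown. The lists held 924 (WT pemetrexed), 1807 (WT cisplatin), 5278 (KO pemetrexed) and 4570 (KO cisplatin) peaks, with 0 duplicated and 0 overlapping rows. Whether starts count from 0 or 1 is not given, so positions are as listed.

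Ends were chosen by midpoint as described. Densities and peak numbers were compared as ratios with exact conditional (Clopper-Pearson) intervals, shares with exact binomial intervals, and lists by conditional odds ratios with exact intervals (Python 3.11.15, scipy 1.17.1). The ratio of odds ratios has a Wald interval. A ratio is treated as settled in direction when its interval leaves out 1. The scripts were tested on simulated lists with peaks placed independently, which does not test the intervals for peaks that stand in runs. Regions were named by rule: the 5 widest end peaks per list, the 3 ends with the most KO and the 3 with the most WT pemetrexed peaks and their outermost peaks, the 5 KO pemetrexed regions with the most peaks, regions in 3 lists, the 5 longest in 2, and the peaks at the 5 Mb limit. Other ends were named after their counts were seen. The ends, lists and tests were chosen with earlier results of these data known. No genome of build hg18 was used, so no sequence is printed.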

Additional observations from a re-analysis of the deposited data

Results flagged for a closer look

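Between KO and WT, the odds ratio of lying at a long-arm end was 3.53 after pemetrexed and 1.27 after cisplatin, and the first was 2.77 times the second (95% Wald interval 1.91 to 4.004). The interval treats peaks as independent. With peaks within 100 kb joined the factor was 1.43 (0.915 to 2.23), and without the 5 ends richest in KO pemetrexed peaks it was 1.24 (0.755 to 2.05).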

How the results depend on the processing

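Over 11 ratios and 310 alternative values, 295 kept their direction, with an interval that held or left out 1 as before. Another 14 kept their direction but their interval came to hold 1, and 1 turned in direction. No paired analysis was possible because there is a single library per group. The cisplatin KO over WT odds ratio (1.27) had an interval that reached 1 with peaks joined within 10 kb (1.2) or 100 kb (1.08), peaks of at least 600 bp (1.18), ends of 2 Mb (1.27) or 10 Mb (1.17), the acrocentric chromosomes left out (1.26), the 5 ends with the most KO pemetrexed peaks left out (1.26), and chromosome 5 (1.23), 8 (1.22), 15 (1.25) or 21 (1.19) left out. With peaks within 100 kb joined, the pemetrexed over cisplatin odds ratio in KO was 1.23 and the factor between the drugs 1.43, both with intervals that hold 1. Without the 5 ends that factor was 1.24, and the pemetrexed over cisplatin odds ratio in WT turned from 0.807 to 1.14, both with intervals that hold 1. The cause was not tested.

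The 4 density ratios and the KO over WT ratios of end peaks kept their side of 1 under every alternative. Their sizes moved, and the pemetrexed KO over WT ratio of 11.6 was 16.8 in the last 2 Mb, 8.14 in the last 10 Mb, 28.3 with peaks of at least 600 bp, 7.00 with peaks within 10 kb joined and 1.86 within 100 kb. Leaving out 1 chromosome at a time gave 10.3 to 12.8 for this ratio and 2.99 to 4.17 for its odds ratio. Leaving out the peaks that set the last position, or the 5 ends, was chosen after the data were seen. The share of KO cisplatin end peaks at a KO pemetrexed peak was 3.74% with a reciprocal overlap of 50%, against 9.77%, and that of WT pemetrexed 0%.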
